A study of Mus musculus with 18 samples.

Results

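The AP-1 transcription factors were followed in messenger RNA of mouse bone marrow-derived macrophages. Members were taken by gene symbol: Fos, Fosb, Fosl1, Fosl2, Jun, Junb, Jund, Atf3, Batf and Batf2, 10 symbols, of which 9 had a row among the 21380 genes of the count table. Jund was not analysed here, and Fosl1 stayed below the filter on low counts, so 8 members were tested. The 6 groups were Ldha knockout (KO) and wild-type (WT) cells with interferon gamma (IFN-gamma), KO and WT cells with interleukin 4 (IL-4), and KO and WT cells without cytokine, with 3 libraries each. Ldha encodes the A chain of lactate dehydrogenase, which interconverts pyruvate and lactate. All cells were flushed from femurs and grown for 7 days in serum-containing medium with macrophage colony-stimulating factor, and cytokines acted for 24 h. The sample descriptions carry 6 number codes, 3 per genotype, each found once in every treatment. They are read here as animals, which no label states, and if libraries of a group were not separate animals, p-values cover only the spread between these samples. The labels name neither strain nor age, nor how Ldha was deleted.

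AP-1 is a set of dimers of basic leucine zipper (bZIP) proteins. FOS-family proteins (FOS, FOSB, FOSL1, FOSL2) do not form homodimers and pair with JUN-family proteins, which also pair with each other. FOS and FOSB carry strong activation domains, FOSL1 and FOSL2 lack the FOS type of activation domain, and JUNB activates many AP-1 sites less strongly than JUN. ATF3 is a stress-induced bZIP factor that restrains inflammatory genes in macrophages. BATF has little outside its bZIP region, and BATF and BATF2 pair with JUN proteins and with interferon regulatory factors. Fos, Fosb, Jun, Junb and Atf3 are immediate early genes, with short-lived transcripts made when mitogen-activated protein (MAP) kinases or calcium and cyclic AMP signals reach their promoters. BATF2 is known for its induction by IFN-gamma in macrophages.

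Gene-assigned reads numbered 9.77 to 49.5 M per library (median 30.9 M). Values below are normalized counts, and changes are log2 fold changes ± SE from a limma fit across 14288 genes, on the log2(normalized count + 1) scale, with p-values adjusted over all of these genes. A change was called at an adjusted p under 0.05. Ldha ran from 9189.6 to 10124 in KO and from 36197 to 38896 in WT libraries with IFN-gamma, from 4105 to 4226 against 22901 to 25145 with IL-4, and from 2128 to 2591 against 10712 to 12204 in untreated cells. Lyz2, the lysozyme gene of macrophages, ran from 173 to 873 over all KO libraries and from 200017 to 700319 over all WT libraries, so KO cells differed in this gene too. All 8 macrophage markers examined had rows, and their summed counts were 194241 to 271388 over KO libraries and 238374 to 278376 over WT libraries. With IFN-gamma, 3 of the 8 were called higher and 3 lower in KO than in WT cells (all genes 14.3% and 13.6%). With IL-4, 0 were higher and 4 lower (all genes 3.46% and 3.13%). In untreated cells the counts were 0 and 1 (all genes 1.46% and 0.525%). The 5 IFN-gamma markers examined, Nos2 and Cxcl9 among them, summed to 515626 to 547120 in the libraries with IFN-gamma, against 1783 to 2532 in untreated ones. The 5 IL-4 markers examined summed to 36994 to 45764 in KO and 68239 to 77263 in WT libraries with IL-4. In untreated libraries they summed to 5782 to 7816 in KO and 10324 to 14063 in WT cells.

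Promoter windows of RefSeq (GRCm38.p6, 250 bases before to 50 bases after the start) were at hand for 7 of the 9 members, not for Fosl1 and Batf2. The windows of the 4 genes that were lower in KO cells with IFN-gamma (Fos, Fosb, Fosl2 and Junb, described next), and that of Jun for contrast, are shown because they let a reader see which short motifs these genes share. Fos lies on the plus strand (chr12:85473640-85473939), Fosb on the minus strand (chr7:19309996-19310295), Fosl2 on the plus strand (chr5:32136222-32136521), Junb on the minus strand (chr8:84978699-84978998) and Jun on the minus strand (chr4:95052173-95052472). Each is printed from 5′ to 3′ on the strand of its gene, and capitals mark TGACG, the core of the cyclic AMP response element, or TGACATCA in Jun, and Fosl2 holds neither.
Fos: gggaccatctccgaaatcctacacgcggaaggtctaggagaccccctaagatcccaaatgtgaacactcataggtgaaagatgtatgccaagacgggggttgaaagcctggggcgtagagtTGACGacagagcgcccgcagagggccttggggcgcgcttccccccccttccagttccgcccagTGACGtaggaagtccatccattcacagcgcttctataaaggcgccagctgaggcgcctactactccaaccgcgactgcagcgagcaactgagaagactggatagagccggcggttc
Fosb: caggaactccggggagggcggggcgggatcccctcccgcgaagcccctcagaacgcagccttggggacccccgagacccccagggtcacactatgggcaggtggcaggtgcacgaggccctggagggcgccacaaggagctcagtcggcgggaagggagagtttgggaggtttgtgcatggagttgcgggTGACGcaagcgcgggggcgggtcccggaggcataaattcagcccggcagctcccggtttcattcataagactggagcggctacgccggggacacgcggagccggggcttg
Fosl2: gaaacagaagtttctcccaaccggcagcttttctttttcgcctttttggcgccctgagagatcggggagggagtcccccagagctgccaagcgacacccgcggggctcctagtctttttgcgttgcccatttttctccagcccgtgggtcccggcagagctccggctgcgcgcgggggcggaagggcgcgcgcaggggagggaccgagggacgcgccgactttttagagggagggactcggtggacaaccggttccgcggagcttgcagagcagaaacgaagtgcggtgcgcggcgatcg
Junb: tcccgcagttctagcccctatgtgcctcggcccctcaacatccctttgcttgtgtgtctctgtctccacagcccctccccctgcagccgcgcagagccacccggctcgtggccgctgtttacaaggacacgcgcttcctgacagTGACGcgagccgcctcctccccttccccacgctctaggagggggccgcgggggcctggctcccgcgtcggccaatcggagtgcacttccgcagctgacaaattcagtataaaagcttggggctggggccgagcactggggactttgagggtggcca
Jun: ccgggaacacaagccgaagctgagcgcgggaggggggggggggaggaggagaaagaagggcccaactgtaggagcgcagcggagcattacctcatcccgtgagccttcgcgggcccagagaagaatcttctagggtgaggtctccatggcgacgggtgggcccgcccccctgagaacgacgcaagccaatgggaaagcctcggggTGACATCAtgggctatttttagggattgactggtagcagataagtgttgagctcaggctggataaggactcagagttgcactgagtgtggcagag
TGACG stood in 5 of the 7 windows, with its first letter at -129 and -66 in Fos, -60 in Fosb, -106 in Junb, -98 in Batf and, on the other strand, -7 in Atf3, counting the start as 0. Over all 32851 windows of the table, 20.8% held TGACG on either strand. Jun held TGACATCA at -45, a variant AP-1 site known from the human JUN promoter, as did 3.62% of all windows. None of the 7 windows held, on either strand, TGANTCA (the AP-1 site, in 7.81% of all windows), TGACGTCA (the full cyclic AMP response element, in 1.79%) or a CArG box, the core bound by serum response factor (in 1.63%). TGACG is part of TGACGTCA, and TGACG and TGACATCA were added after the windows had been read. These are letters in a window, and no binding was measured. Sites outside the windows were not searched, so absence here does not mean that a gene lacks such a site.

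By length, Atf3 had the highest level of the members in each group. Per kilobase of exon, Atf3 averaged 13287 normalized counts in KO and 15711 in WT cells with IFN-gamma, 12877 and 11452 with IL-4, and 6496 and 5621 in untreated cells. Its share of the summed per-kilobase level of the 9 members was 56.7 ± 1.3% in KO and 49.6 ± 2.53% in WT cells with IFN-gamma, 66.7 ± 1.49% and 60.8 ± 4.53% with IL-4, and 58.6 ± 1.6% and 57.6 ± 2.5% in untreated cells (SD, n = 3). The FOS family together made 3.54 ± 0.963% of the sum in KO and 7.3 ± 1.4% in WT cells with IFN-gamma, 6.61 ± 0.772% and 9.07 ± 0.755% with IL-4, and 12.2 ± 1.25% and 10.04 ± 0.433% in untreated cells. In IFN-gamma and IL-4 cells the FOS-family share was thus lower in each KO library than in each WT library, and in untreated cells it was higher. Batf2 made 15.2 ± 1.82% of the sum in KO and 11.1 ± 3.09% in WT cells with IFN-gamma and 0.215 to 0.441% over the libraries without IFN-gamma. Shares describe transcripts, and a share falls when another member rises.

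**Figure D1:**
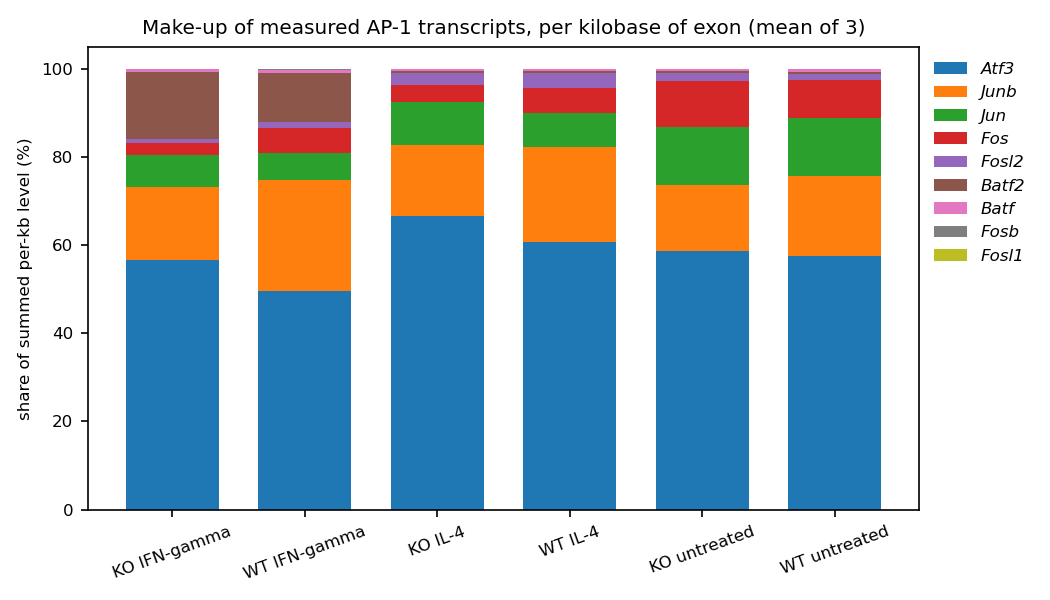
Stacked bars give the mean share (%, vertical axis, n = 3) of each AP-1 transcript in the summed per-kilobase level for the 6 groups on the horizontal axis. Atf3 makes the largest part of each bar, and Batf2 is visible in the 2 IFN-gamma bars only.

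With IFN-gamma, 4 AP-1 genes were lower in KO than in WT cells: Fos, Fosb, Fosl2 and Junb. The KO mean was 32.9% of the WT mean for Fos, 45.1% for Fosl2, 47.6% for Junb and 11.4% for Fosb. Thus 3 of the 4 lowered genes are FOS-family genes, whose products need a JUN partner, and the fourth encodes such a partner. No member was higher. The 4 lowered members stand against 13.6% of all genes tested that were called lower in this comparison (27.9% in either direction).

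**Figure D2:**
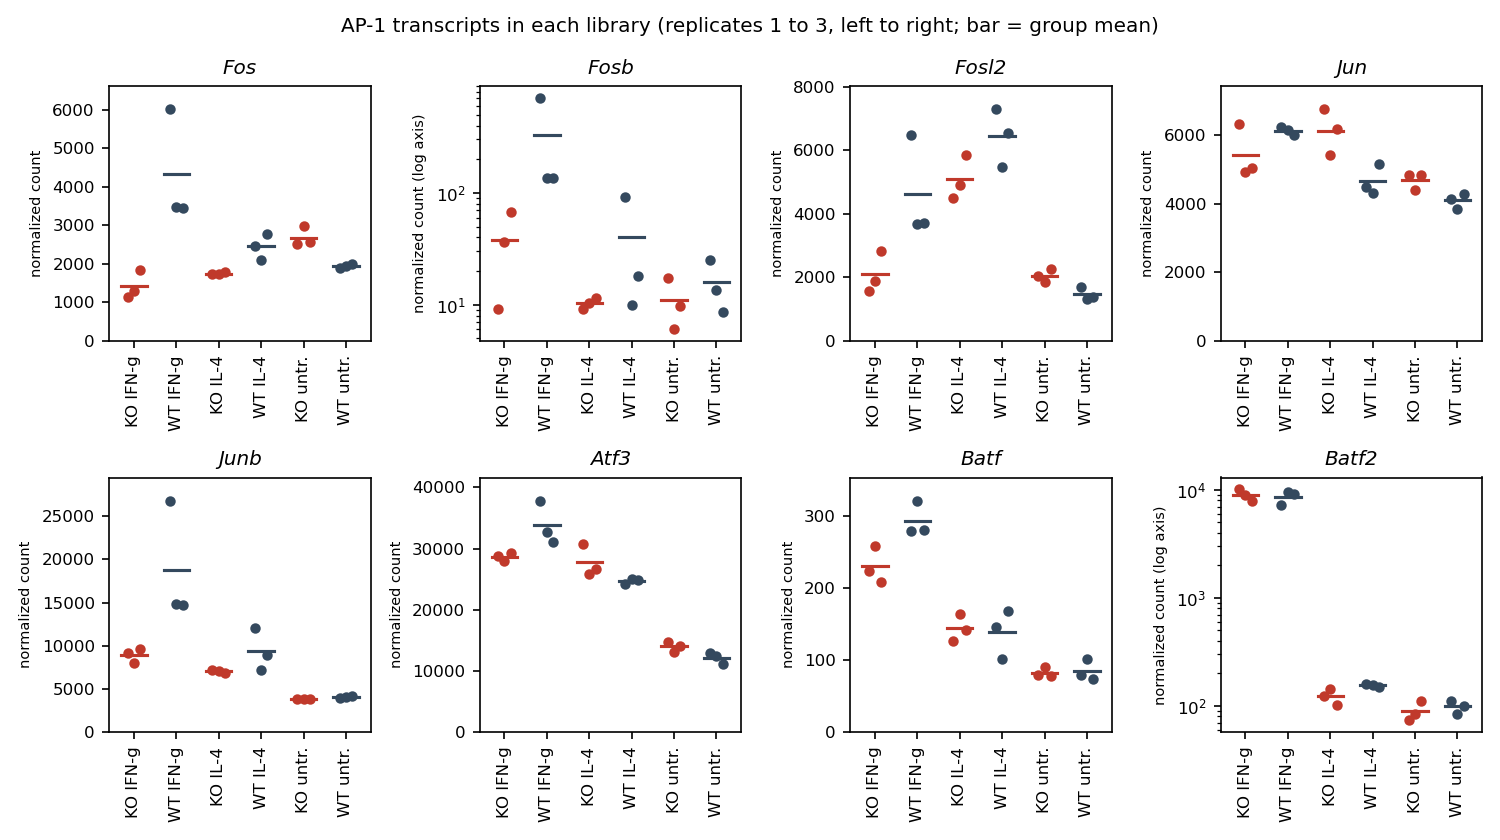
Points are normalized counts (vertical axis) of single libraries, replicates 1 to 3 from left to right, and bars are group means, with KO in red and WT in dark grey-blue. Axes of Fosb and Batf2 are logarithmic, the others start at 0. All KO points of Fos, Fosb, Fosl2 and Junb with IFN-gamma lie below all WT points.

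Fos, the founding FOS-family gene, had 1143, 1283 and 1838 normalized counts in KO cells with IFN-gamma, against 6021, 3487 and 3456 in WT cells with IFN-gamma (replicates 1 to 3). All KO libraries lay below all WT libraries, and WT replicate 1 stood highest. The log2 fold change was -1.58 ± 0.18 (SE), adjusted p = 7.98e-06. Without WT replicate 1 it was -1.32, adjusted p = 9.92e-06.

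Fosl2, which encodes the FOS-family protein FRA-2, had 1554, 1879 and 2819 in KO and 6497, 3664 and 3712 in WT cells with IFN-gamma. The groups did not overlap, and KO replicate 3 came closest to the WT libraries. It fell by 1.14 on the log2 scale (SE 0.21, adjusted p = 0.000764), and by 0.87 without WT replicate 1 (adjusted p = 0.00359).

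Junb, which encodes a JUN-family partner of these proteins, had 9209.7, 8016 and 9618 in KO and 26814, 14797 and 14735 in WT cells with IFN-gamma. KO libraries agreed closely, while WT replicate 1 stood well above the other two. The log2 fold change was -1.01 ± 0.18 (SE), adjusted p = 0.000611, and -0.73 without WT replicate 1 (adjusted p = 0.00113).

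Fosb, a short-lived FOS-family transcript, had 9.16, 36.4 and 67 in KO and 711, 135 and 137 in WT cells with IFN-gamma. Its counts were low and spread widely within both groups, without overlap. The log2 fold change was -3.01 ± 0.78 (SE), adjusted p = 0.00845, but the call was lost without WT replicate 1 (-2.21, adjusted p = 0.0548) and without KO replicate 1 (-2.24, adjusted p = 0.0582).

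The other 4 members did not pass with IFN-gamma. Atf3 had 28750.3, 27885 and 29224 in KO and 37830.5, 32646 and 31048 in WT cells, without overlap (-0.24 ± 0.087 (SE), adjusted p = 0.0511). It was called when genes with a mean under 50 were left out (adjusted p = 0.0412), by DESeq2 on recovered reads (0.0283) and without WT replicate 3 (0.0317). Batf had 224, 258 and 209 in KO and 279, 321 and 281 in WT cells, again without overlap (-0.35 ± 0.18 (SE), adjusted p = 0.156). Jun had 6309.6, 4915 and 5046 in KO and 6236, 6134 and 6001 in WT cells, and KO replicate 1 lay above the WT libraries (-0.18 ± 0.098 (SE), adjusted p = 0.178). Without that library Jun was called, at -0.30 (adjusted p = 0.0329). Batf2 had 10169, 8969 and 7879 in KO and 7172, 9622 and 9233 in WT cells, overlapping, with a log2 fold change of 0.058 ± 0.16 (SE) (adjusted p = 0.832).

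**Figure D3:**
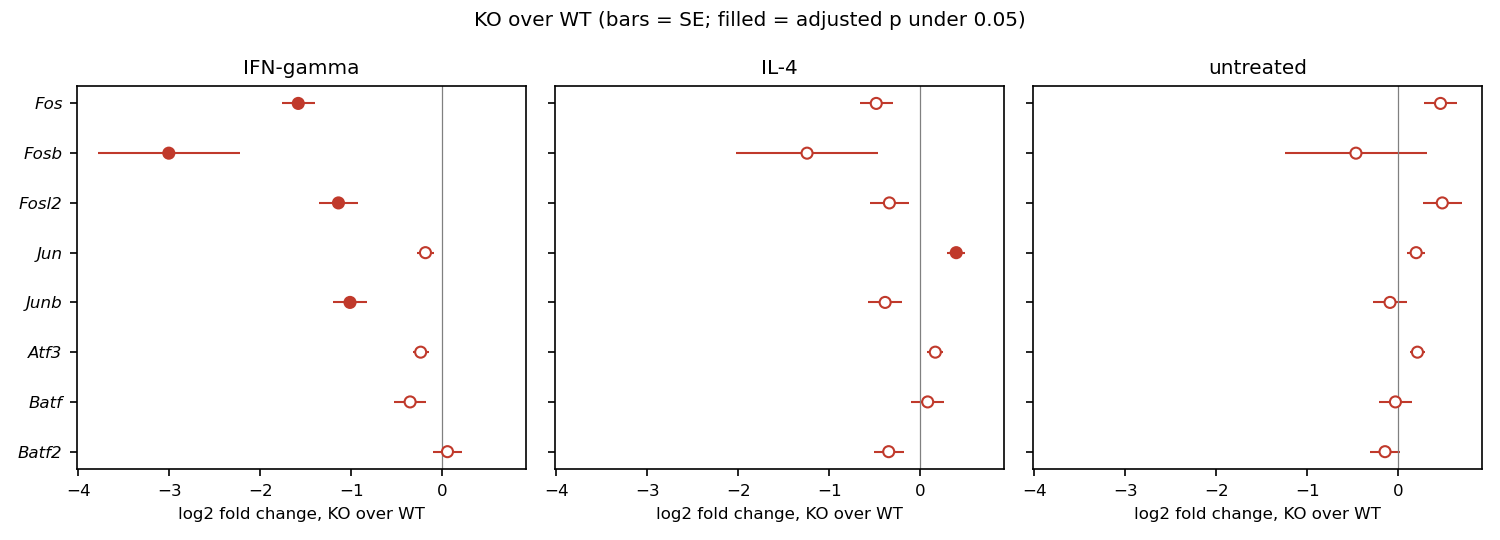
Points are log2 fold changes of KO over WT (horizontal axis) for the 8 members tested, with SE bars, in IFN-gamma, IL-4 and untreated cells. Filled points passed an adjusted p of 0.05: Fos, Fosb, Fosl2 and Junb on the negative side with IFN-gamma, and Jun on the positive side with IL-4.

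Markers of other cell types were summed in the same IFN-gamma libraries. Dendritic cell markers (3 of 5 with rows) summed to 830 to 994 in KO and 1273 to 2487 in WT libraries, osteoclast markers (4 of 4) to 1049.7 to 1415 against 363 to 395, and stromal markers (8 of 10) to 240.02 to 929.96 against 150.3 to 304. Neutrophil markers (4 of 8) summed to 31.2 to 67 against 2.25 to 4.72, B cell markers (3 of 4) to 20.2 to 29.6 against 7.89 to 13, mast cell markers (2 of 4) to 10.1 to 34.6 against 28.3 to 38.3, and macrophage markers (8 of 8) to 211457 to 227268 against 251295 to 278376. No marker with a row was at 0 in all 18 libraries, and T cell and erythroid markers were not analysed here. Their part in the AP-1 differences was not tested. In bulk RNA, fewer cells of a type and less RNA per cell cannot be told apart.

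In untreated cells no member passed (0 of 8 in limma, against 1.98% of all genes, 1.46% higher and 0.525% lower). At an unadjusted p under 0.05 there were 3 members, and edgeR on recovered reads called 0 and DESeq2 0 of 8. Fos had 2505, 2977 and 2556 in untreated KO and 1892, 1929.6 and 1990.4 in untreated WT cells, without overlap, and its log2 fold change was 0.46 ± 0.18 (SE), adjusted p = 0.273. Fosl2 had 2028, 1846 and 2250.2 in untreated KO and 1696, 1325 and 1371 in untreated WT cells, also without overlap (0.48 ± 0.21 (SE), adjusted p = 0.364). In a fit of the 6 untreated libraries alone, both were called (adjusted p = 0.0128 for Fos and 0.0433 for Fosl2). Junb had 3818, 3851 and 3819.5 in untreated KO and 3921, 4109 and 4213 in untreated WT cells, again without overlap, a difference of -0.091 (adjusted p = 0.935). Fosb had 17.2, 6.06 and 9.8 in untreated KO and 25.3, 13.5 and 8.56 in untreated WT cells, which overlapped. The remaining members, Jun, Atf3, Batf and Batf2, differed by 0.20, 0.21, -0.032 and -0.15, and Jun and Atf3 were also without overlap. The share of all genes without overlap was not counted in any comparison, so lack of overlap does not set a member apart.

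With IL-4, Jun was the 1 member of 8 that passed, against 6.59% of all genes (3.46% higher and 3.13% lower). Jun, the founding JUN-family gene, had 6756, 5419.6 and 6190.1 in KO and 4469.6, 4318 and 5163 in WT cells with IL-4. Each KO library was above each WT library, and the log2 fold change was 0.40 ± 0.098 (SE), adjusted p = 0.0226. The call was lost in a fit of the IL-4 libraries alone (adjusted p = 0.191) and without KO replicate 1 (0.108), KO replicate 3 (0.0522), WT replicate 1 (0.0573) or WT replicate 2 (0.0647). Fos had 1720.4, 1739 and 1771 in KO and 2472, 2108 and 2783 in WT cells with IL-4, without overlap, and the difference of -0.48 did not pass (adjusted p = 0.122). Junb had 7187, 7061 and 6899 in KO and 12063, 7223 and 8976 in WT cells, where WT replicate 2 nearly met the KO libraries (-0.39, adjusted p = 0.23). Fosl2 had 4495, 4902 and 5865 in KO and 7303, 5479 and 6544 in WT cells, overlapping (-0.34, adjusted p = 0.371). Fosb had 9.07, 10.4 and 11.5 in KO and 91.8, 9.84 and 18.1 in WT cells, and WT replicate 1 alone stood apart. Atf3, Batf and Batf2 differed by 0.17, 0.081 and -0.35 with adjusted p = 0.283, 0.838 and 0.224, and Atf3 and Batf2 were without overlap.

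Whether the response to IFN-gamma itself differed by genotype was tested as an interaction, the response in KO minus that in WT cells. Fos, Fosl2, Junb and Atf3 had a lower response in KO cells, 4 of 8 members, against 4.84% of all genes with a lower, 4.3% with a higher and 9.15% with a lower or higher response. Fos had an interaction of -2.05 ± 0.26 (SE) with adjusted p = 0.000116, and Fosl2 of -1.62 ± 0.30 (SE) with adjusted p = 0.00259. For both genes the call held with each single library left out (adjusted p up to 0.000627 for Fos and 0.0101 for Fosl2). Junb (-0.92 ± 0.26 (SE), adjusted p = 0.0334) and Atf3 (-0.45 ± 0.12 (SE), adjusted p = 0.0303) passed narrowly. The Junb call was lost without any 1 of the 6 untreated libraries or of replicates 1 and 2 of the KO cells with IFN-gamma, with an adjusted p of up to 0.0792 and values of -0.95 to -0.85. The Atf3 call was lost without KO untreated replicate 1 or 3, WT untreated replicate 2 or 3, replicate 1 or 2 of KO cells with IFN-gamma, or replicate 1 of WT cells with IFN-gamma (adjusted p up to 0.0902), and after quantile normalization (0.0581). With the animal as a block, Fosb and Jun passed as well (-2.54, adjusted p = 0.0388, and -0.38, adjusted p = 0.0199), against 0.174 and 0.1 without it, and Jun also passed without KO IFN-gamma replicate 1 (0.0276). The response to IL-4 differed by genotype for 0 of 8 members in limma, with 1 gene of all tested called (0.007%) and 2 members at an unadjusted p under 0.05. Fos and Fosl2 were again the members with the lowest p, at -0.95 ± 0.26 (SE) (adjusted p = 0.524) and -0.82 ± 0.30 (SE) (adjusted p = 0.781). No member passed this IL-4 interaction by edgeR or DESeq2 on recovered reads either.

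**Figure D4:**
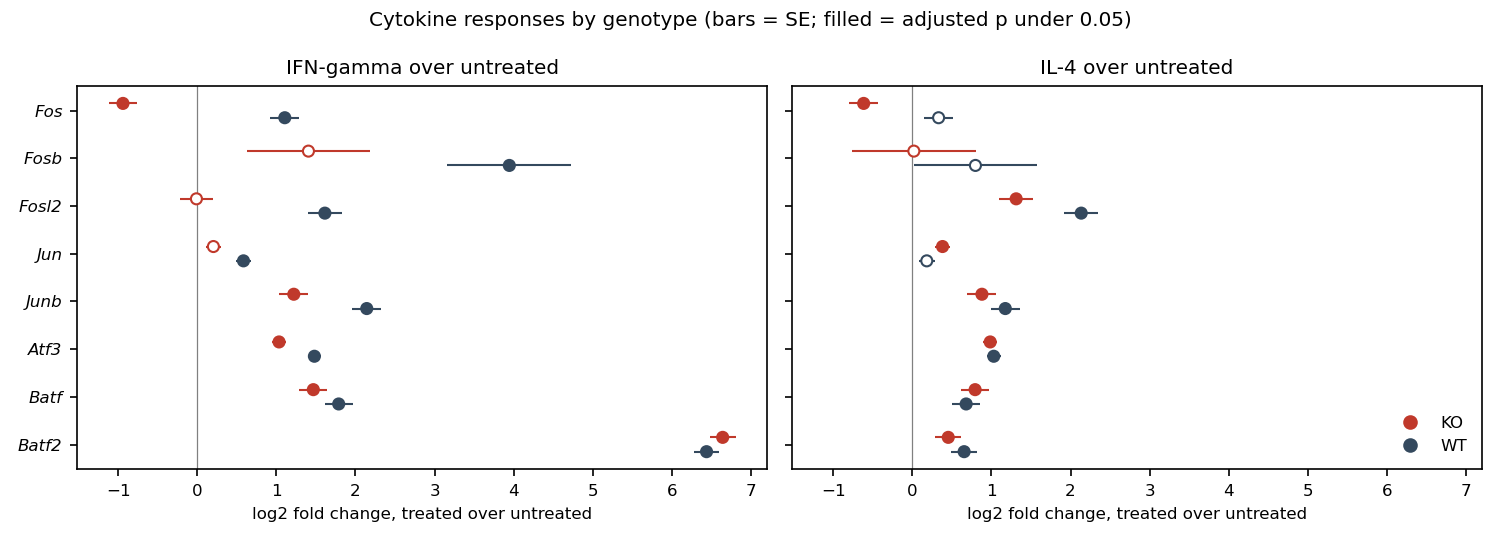
Points are log2 fold changes of cytokine-treated over untreated cells (horizontal axis) with SE bars, KO in red and WT in dark grey-blue, filled where the adjusted p was under 0.05. With IFN-gamma, Fos lies left of 0 in KO and right of 0 in WT cells, and Batf2 lies above 6 in both.

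IFN-gamma raised 4 of 8 members in KO cells, where Fos fell, and 8 of 8 in WT cells. Called genes were 55.8% of all genes in KO cells (28.3% higher and 27.5% lower) and 62.4% in WT cells (31.4% higher and 31.1% lower). Each genotype's IFN-gamma and IL-4 responses share their untreated libraries. Batf2, an IFN-gamma-induced partner of JUN proteins and interferon regulatory factors, had the largest rise. It stood at 10169, 8969 and 7879 in KO cells with IFN-gamma, against 73.3, 84.9 and 112 in untreated KO cells, and at 7172, 9622 and 9233 in WT cells with IFN-gamma, against 112, 83.9 and 101 in untreated WT cells. The log2 fold changes were 6.64 ± 0.16 (SE) in KO and 6.44 ± 0.16 (SE) in WT cells (adjusted p = 1.46e-15 and 2.39e-15), ratios of means of 100.04 and 87.7. The difference of both responses was 0.20 ± 0.23 (SE), adjusted p = 0.652.

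Fos moved in opposite directions. It fell to 1143, 1283 and 1838 in KO cells with IFN-gamma, against 2505, 2977 and 2556 in untreated KO cells (-0.94 ± 0.18 (SE), adjusted p = 0.000269). In WT cells it rose to 6021, 3487 and 3456 with IFN-gamma, against 1892, 1929.6 and 1990.4 in untreated cells (1.11 ± 0.18 (SE), adjusted p = 4.22e-05). Neither pair of groups overlapped. Fosl2 rose in WT cells (1.61 ± 0.21 (SE), adjusted p = 3.36e-06), and its value in KO cells was -0.011 ± 0.21 (SE), adjusted p = 0.97. That KO value changed sign when each of 3 libraries was left out and with 2 other tools, and stayed within -0.25 to 0.18 over single libraries left out.

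Junb rose in both genotypes, by 1.22 ± 0.18 (SE) in KO and 2.14 ± 0.18 (SE) in WT cells (adjusted p = 1.95e-05 and 1.42e-08). Atf3 rose by 1.03 ± 0.087 (SE) in KO and 1.48 ± 0.087 (SE) in WT cells (adjusted p = 1.47e-08 and 9.63e-11). Batf, the T helper and dendritic cell factor that joins JUN proteins and IRF4 or IRF8, rose by 1.47 ± 0.18 (SE) in KO and 1.79 ± 0.18 (SE) in WT cells (adjusted p = 1.65e-06 and 1.11e-07). Its levels were 230.1 ± 25.3 in KO cells with IFN-gamma against 82.4 ± 6.7 in untreated KO cells, and 294 ± 24 in WT cells with IFN-gamma against 84.9 ± 14.3 in untreated WT cells (SD, n = 3). Jun rose in WT cells (0.58 ± 0.098 (SE), adjusted p = 5.37e-05) and had 0.20 ± 0.098 (SE) in KO cells, adjusted p = 0.0883. Fosb rose in WT cells (3.95 ± 0.78 (SE), adjusted p = 0.000283) and had 1.41 ± 0.78 (SE) in KO cells, adjusted p = 0.138. With the animal as a block, both also passed in KO cells (adjusted p = 0.0222 for Jun and 0.0366 for Fosb). The Jun value in KO cells turned to -0.10 after quantile normalization and passed without KO IFN-gamma replicate 2 (0.27, adjusted p = 0.0454). Without KO IFN-gamma replicate 1, Fosb passed at 2.18 (adjusted p = 0.0316).

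IL-4 raised 6 of 8 members in KO cells, where Fos fell, and 5 of 8 in WT cells, against 15.8% and 16.3% of all genes called higher and 14.5% and 14% called lower (30.2% and 30.3% in either direction). Fosl2 had the largest rise. It stood at 4495, 4902 and 5865 in KO cells with IL-4, against 2028, 1846 and 2250.2 in untreated KO cells, and at 7303, 5479 and 6544 in WT cells with IL-4, against 1696, 1325 and 1371 in untreated WT cells. No treated library overlapped an untreated one, and the log2 fold changes were 1.31 ± 0.21 (SE) in KO and 2.14 ± 0.21 (SE) in WT cells (adjusted p = 0.000117 and 6.62e-07). Atf3 rose by 0.98 ± 0.087 (SE) in KO and 1.03 ± 0.087 (SE) in WT cells (adjusted p = 1.45e-07 and 9.69e-08), with a difference of -0.045 ± 0.12 (SE) between the responses.

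Junb rose with IL-4 by 0.88 ± 0.18 (SE) in KO and 1.18 ± 0.18 (SE) in WT cells (adjusted p = 0.00125 and 9.16e-05). Batf rose by 0.79 ± 0.18 (SE) in KO and 0.68 ± 0.18 (SE) in WT cells (adjusted p = 0.00237 and 0.00753), and the WT call was lost in a fit of the libraries compared alone (adjusted p = 0.0795) and without WT animal 1 in any treatment (0.0616). Batf2, which rose so far with IFN-gamma, had only 123, 144 and 102 in KO and 158, 157 and 150.04 in WT cells with IL-4 (0.45 ± 0.16 (SE), adjusted p = 0.0436, in KO, and 0.65 ± 0.16 (SE), adjusted p = 0.00524, in WT cells). The KO call of Batf2 was lost with the animal as a block (adjusted p = 0.0575), by edgeR (0.0839), by DESeq2 (0.0525), with no filter (0.0518), with the libraries compared alone (0.13) and without KO untreated replicate 1 or 2 or KO IL-4 replicate 1 or 2 (up to 0.204). Jun rose in KO cells (0.38 ± 0.098 (SE), adjusted p = 0.00634) and had 0.18 ± 0.098 (SE) in WT cells, adjusted p = 0.175. Fos fell in KO cells (-0.62 ± 0.18 (SE), adjusted p = 0.0155, lost without KO untreated replicate 2 at 0.0711) and had 0.33 ± 0.18 (SE) in WT cells, adjusted p = 0.183. Fosb did not pass in either genotype.

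Set directly against IL-4, IFN-gamma left 3 of 8 members different in KO cells and 8 of 8 in WT cells. Of all genes, 55% were called in KO cells (27.5% higher and 27.4% lower) and 60.5% in WT cells (30.8% higher and 29.7% lower). In both genotypes Batf2 and Batf were higher with IFN-gamma (6.19 and 0.67 in KO, 5.78 and 1.11 in WT cells), and Fosl2 was lower (-1.32 ± 0.21 (SE), adjusted p = 4.04e-05, in KO, and -0.52 ± 0.21 (SE), adjusted p = 0.0418, in WT cells). The WT call of Fosl2 was lost by edgeR (0.0561), in a fit of those libraries alone (0.0789) and without WT IFN-gamma replicate 2 or 3 or WT IL-4 replicate 1 or 3 (up to 0.174). Fos, Fosb, Jun, Junb and Atf3 were higher with IFN-gamma in WT cells, by 0.77, 3.15, 0.40, 0.97 and 0.45, of which Jun and Atf3 lost their call after quantile normalization (adjusted p = 0.171 and 0.17). In KO cells the same 5 had -0.32, 1.39, -0.18, 0.34 and 0.049, none of which passed in the fit without a block. After quantile normalization 3 of them passed, Fos at -0.43 (adjusted p = 0.0446), Jun at -0.39 (0.0012) and Atf3, with its sign turned, at -0.26 (0.0249). With the animal as a block, 6 of 8 passed in KO cells, with Fosb (adjusted p = 0.0396), Jun (0.0424) and Junb (0.0496) added. Without a block, Jun and Fosb passed without KO IFN-gamma replicate 1 (adjusted p = 0.0152 and 0.0328), Jun without KO IL-4 replicate 2 (0.0446), Fos without KO IFN-gamma replicate 3 (0.0214) and Junb in a fit of those libraries alone (0.0099).

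The spread among animals was not alike for all members. Fosb was highest in WT animal 1 (replicate 1) in all 3 treatments, 0.77 to 1.79 above the mean of its group on the log2 scale, and so was Fosl2, at 0.19 to 0.54 above. WT IFN-gamma replicate 1 was the highest of its group for 6 of 8 members, and the lowest for the other two, Batf and Batf2. In KO cells with IFN-gamma, replicate 3 was highest for 5 of 8 members. Without WT animal 1 in any treatment, 4 of 8 members were still lower in KO cells with IFN-gamma and Fos, Fosl2, Junb and Atf3 still had a lower IFN-gamma response (adjusted p up to 0.0467, for Atf3). Without that animal, Fos had -1.32 (adjusted p = 2.44e-05), Fosl2 -0.87 (0.00273), Junb -0.73 (3.09e-05) and Fosb -2.21 (0.0154) for KO over WT with IFN-gamma. Jun no longer passed with IL-4 (0.0634).

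**Figure D5:**
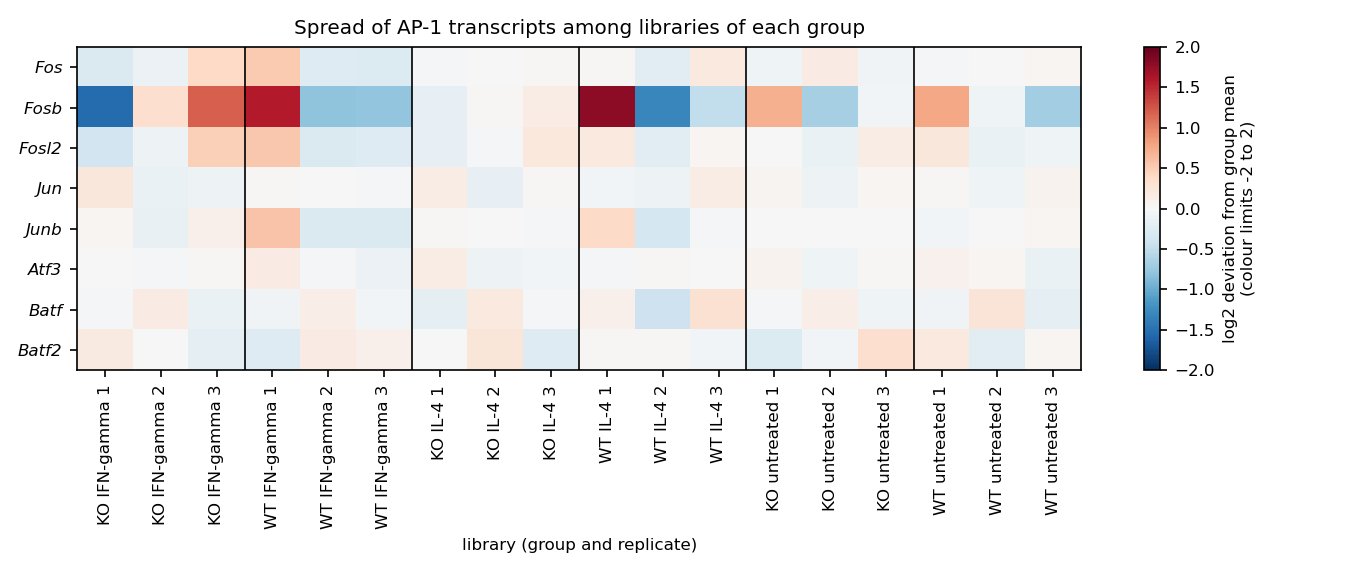
Colours give the log2 deviation of each library (horizontal axis) from the mean of its group for the 8 members tested (vertical axis), red above and blue below. The Fosb row varies most, and WT IFN-gamma replicate 1 is above its group in Fos, Fosb, Fosl2 and Junb.

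Fosl1, the gene of the FOS-family protein FRA-1, was near the detection limit. Recovered reads over 3 libraries were 13 in KO and 13 in WT cells with IFN-gamma, 4 and 4 with IL-4, and 2 and 6 in untreated cells, from a highest normalized count of 8.84 in WT IFN-gamma replicate 1. With the filter on low counts removed, Fosl1 was called in 1 of the 11 comparisons, higher with IFN-gamma than untreated in KO cells (1.91 ± 0.58, adjusted p = 0.0126), against 1.07 ± 0.58, adjusted p = 0.155 in WT cells. Its group total of 2 reads in untreated KO cells makes that value depend on the pseudocount, and KO over WT gave 0.26 ± 0.58, adjusted p = 0.827 with IFN-gamma, 0.24 ± 0.58, adjusted p = 0.878 with IL-4 and -0.58 ± 0.58, adjusted p = 0.893 in untreated cells. Some members lie over other genes, and no label says whether counting used the strand. Jun overlaps the antisense gene Junos, which held 12.1 to 68.9 normalized counts per library, and the 3′ end of Junb overlaps Prdx2 on the opposite strand, which held 6251 in KO and 6465 in WT cells with IFN-gamma on average. Batf2 overlaps Arl2, which averaged 935 in KO and 953 in WT cells with IFN-gamma. Arl2 averaged 1181 in KO and 1361 in WT cells with IL-4, and 851 and 1015 in untreated cells. Batf2 itself averaged only 123 and 155 with IL-4, and 90 and 98.9 in untreated cells. Whether reads of Arl2 entered the Batf2 values was not tested. Values of Jun, Junb, Batf2 and Fosl1 are uncertain to that extent. In GRCm38 coordinates of the count table, Fos spans 85473890 to 85477273 and Batf 85686669 to 85709087 on chromosome 12, both on the plus strand. Fosl1 spans 5447547 to 5455946 and Batf2 6140983 to 6172476 on chromosome 19, also both on the plus strand.

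For members whose group means spanned at least 2 on the log2 scale, the genes with the most similar pattern over the 18 libraries were looked up by the mean absolute difference of centred log2 levels among 10056 genes. Nearest to Junb was Zfp36, which encodes the mRNA-destabilizing protein tristetraprolin, at 0.137, before BC051226 at 0.161 and Pdlim4 at 0.19. Nearest to Fosl2 were Fyn, a Src-family kinase, at 0.209, Mmp19 at 0.308 and Auh at 0.334. Batf2 stood nearest to the interferon-induced genes Gbp7 at 0.261, Gbp3 at 0.328 and Mx1 at 0.355. Fosb stood nearest to Rnd1 at 0.634, Fgfbp3 at 0.701 and Inpp5j at 0.703. Only genes with a mean normalized count of at least 100 were compared. Group means of Fosb lay below that except in WT cells with IFN-gamma. Its wide spread within groups also adds to its distance from any gene, so the larger distances do not set Fosb apart. All these distances are descriptions over libraries that share animals.

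Other genes of the pathway were read from lists, and counts for KO over WT with IFN-gamma stand against 27.9% of all genes called (14.3% higher and 13.6% lower). Of 21 other immediate early genes, 8 were lower and 0 higher, with a median log2 fold change of -0.15, against 0.0088 over all genes. Nr4a1, an orphan nuclear receptor induced by the same signals as Fos, had 75.5 ± 22 in KO and 303 ± 66.2 in WT cells (SD, n = 3), a change of -2.005 ± 0.20 (SE, adjusted p = 1.33e-06). Zfp36 had 6888 ± 126 in KO and 14054 ± 3231 in WT cells, a change of -1.01 ± 0.10 (SE, adjusted p = 2.83e-06). Ier2 and Btg2, 2 further early response genes, changed by -0.90 and -0.75. In the interaction, 8 of these 21 genes had a lower IFN-gamma response in KO cells and none a higher one, against 4.84% and 4.3% of all genes.

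Of 21 genes of the MAP kinase route, 6 were lower and 1 higher in KO cells with IFN-gamma, with a median of -0.11. Map3k5, the stress kinase ASK1, changed by -0.95 ± 0.12 (SE, adjusted p = 2.28e-05), and Mapkapk2, the p38 target kinase MK2, by -0.36. MAP kinase phosphatases, which switch these kinases off, went both ways, with 5 of 10 lower and 2 higher. Dusp4 changed by 1.51 ± 0.14 (SE, adjusted p = 5.86e-07) and stood at 1434 ± 213 in KO and 504 ± 92.2 in WT cells. Dusp1 and Dusp5 changed by -0.60 and -1.07. Among 7 genes listed for serum response factor, its partners and CREB1, 3 were lower and 2 higher, with Creb1 at -0.38, Mrtfb at 0.59 and Elk4 at 0.42.

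Of 11 genes listed as BATF and interferon regulatory factor partners, 4 were lower and none higher. Among these, Irf1 passed barely (-0.30, adjusted p = 0.04999), and its adjusted p reached 0.222 with single libraries left out. Irf8, which pairs with BATF proteins at composite elements, had 30544 ± 1444 in KO and 50939.7 ± 3101 in WT cells with IFN-gamma, a change of -0.74 ± 0.069 (SE, adjusted p = 9.57e-07), and Irf2 and Spi1 changed by -0.51 and -0.40. Of 20 AP-1 target genes tested, 5 were lower and 3 higher. The 3 higher were Mmp12 (3.34, adjusted p = 1.32e-08), Mmp14 (0.74) and Hmox1 (0.49). Il1b, the interleukin 1 beta gene, changed by -3.00 ± 0.58 (SE, adjusted p = 0.00111), with 2751 ± 1118 in KO and 23725 ± 15897 in WT cells, where the libraries ran from 14349.7 to 42080.02. With IL-4 and in untreated cells, where 6.59% and 1.98% of all genes were called, 0 of 21 and 1 of 21 genes of the MAP kinase route were called, 0 of 10 and 0 of 10 phosphatases, and 2 of 21 and 1 of 21 other immediate early genes. Called in untreated cells were Map2k3 (0.46) of the MAP kinase route and the early gene Nr4a3 (1.78), both higher in KO cells. With single libraries left out, the adjusted p was 0.0517 to 0.113 for Map2k3 and up to 0.191 for Nr4a3. The 2 called with IL-4 were Nr4a1 (-0.92) and Ier2 (-0.37). Nr4a1 lost its call in a fit of the IL-4 libraries alone (adjusted p = 0.0838), as did Ier2 (0.242), which also lost it without any 1 of 5 of the 6 IL-4 libraries (up to 0.13).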

How the data were processed

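Polyadenylated RNA was sequenced with a directional kit. Per the submitters' processing notes, the tools were STAR 2.5, HTSeq 0.6, DESeq2 and edgeR (the last 2 with no version given) and the build GRCm38. The deposited signal is the authors' normalized count per gene, per the file headers. The value of 1 read was estimated from the low values of each column, and after division by it 100% of the quotients lay within 0.1 of a whole number of reads.

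Genes with at least 10 normalized counts in at least 3 of 18 libraries (14288) were fitted on log2(normalized count + 1) with limma 3.58.1 (R 4.3.3, trend, 6 group means, 12 residual degrees of freedom, two-sided, Benjamini-Hochberg over all genes). The fit recovered 100% of genes simulated with log2 changes of 1 and of 2 among 13805 genes for KO over WT with IFN-gamma. Those changes were placed only in genes above a floor on mean count, with the same simulated variability for all genes. The simulated spread was smaller than that of Fos, Fosb, Fosl2 and Junb in WT cells with IFN-gamma. How well changes in such genes are recovered was not tested. Alternatives were other pseudocounts (0.5 and 5), filters (none, or a mean of at least 50), TMM factors, quantile normalization, edgeR 4.0.16 and DESeq2 1.42.0 on recovered reads, blocks, only the libraries compared, and each library left out. Leaving out WT animal 1 was added after seeing the data. Codes in the sample descriptions, read here as animals, join libraries over treatments. Deviations of libraries with the same code correlated at 0.0036 to 0.243 (13 of 18 pairs over 0.1). Named were all members, a part of the 4 called genes of lowest adjusted p in each list and KO over WT comparison, and the 3 genes nearest in pattern. Members and lists were chosen with earlier results of these data known. GENCODE M21 held 97.8% of the gene identifiers, with identical positions for 100% of those.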

Additional observations from a re-analysis of the deposited data

Results flagged for a closer look

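The genotype effect on 4 AP-1 genes differed between IFN-gamma and untreated cells by the interaction term. The IFN-gamma response in KO cells minus that in WT cells was -2.05 for Fos, -1.62 for Fosl2, -0.92 for Junb and -0.45 for Atf3 (log2, adjusted p = 0.000116, 0.00259, 0.0334 and 0.0303). For Fos, the 3 KO libraries with IFN-gamma were all below the 3 untreated KO libraries, and the 3 WT libraries with IFN-gamma all above the 3 untreated WT libraries.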

How the results depend on the processing

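For the 8 members tested, 1471 values kept their direction and side of the threshold over the alternatives, 44 lost a call, 24 gained one and 29 changed sign. Members called moved to 2 for KO over WT in untreated cells and to 0 with IL-4 in fits of only the libraries compared, to 0 with IL-4 without WT animal 1, and to 6 for IFN-gamma over IL-4 in KO cells after quantile normalization or with the animal as a replicate block. Over single libraries left out, members called ranged from 3 to 5 (IFN-gamma) and 0 to 1 (IL-4) for KO over WT, 5 to 7 for IL-4 over untreated and 3 to 5 for IFN-gamma over IL-4 in KO cells, and 2 to 4 for the IFN-gamma interaction. The cause was not tested.

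Signs changed without WT animal 1 for KO over WT in Batf2 with IFN-gamma (-0.074), Cxcl9 (0.20) and Arg1 (0.053) with IL-4, and for the Batf2 IFN-gamma interaction (-0.021). DESeq2 gave -0.016 for Batf, KO over WT with IL-4. In KO cells, quantile normalization gave -0.10 for Jun (IFN-gamma over untreated) and -0.26 for Atf3 (IFN-gamma over IL-4), edgeR and DESeq2 gave 0.0204 and 0.032 for Fosl2 (IFN-gamma over untreated), and a pseudocount of 5, edgeR and DESeq2 gave -0.0055, -0.067 and -0.086 for Fosb (IL-4 over untreated). With single libraries left out, ranges that crossed 0 for KO over WT were -0.038 to 0.23 (Nos2), -0.13 to 0.099 (Batf) and -0.21 to 0.65 (Cxcl9) in untreated cells, -0.074 to 0.15 (Batf2) with IFN-gamma, and -1.36 to 0.63 (Cxcl9), -0.12 to 0.24 (Batf) and -0.35 to 0.053 (Arg1) with IL-4. For responses they were -0.25 to 0.18 (Fosl2, IFN-gamma, KO), -0.31 to 0.37 and -0.098 to 1.45 (Fosb, IL-4, KO and WT) and -0.00096 to 0.12 (Atf3, IFN-gamma over IL-4, KO). For the IL-4 interaction they were -0.092 to 0.27 (Batf), -0.12 to 0.018 (Atf3) and -1.43 to 0.12 (Fosb).

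All genes called for KO over WT were 283 in untreated cells, against 608 by DESeq2, 971 in a fit of only those libraries, 448 without WT animal 1 and 124 to 209 over single libraries left out, and 941 with IL-4, against 128 in a fit of only those libraries and 492 to 1014 over single libraries left out. The IFN-gamma interaction called 1307 genes, against 2073 with the animal block and 762 to 1249 over libraries left out. The IL-4 interaction called 1, against 21 by DESeq2. IFN-gamma raised 4043 and lowered 3927 genes in KO cells (3569 and 4674 after quantile normalization) and raised 4481 and lowered 4441 in WT cells (4040 and 4871 with TMM factors, 3804 and 4988 after quantile normalization). Replicate numbers join different animals across genotypes, whose deviations correlated at -0.212 to 0.104, and with the number as a replicate block Atf3 passed for KO over WT with IFN-gamma (adjusted p = 0.0301). Dusp5 missed the threshold with IFN-gamma in a fit of only those libraries (adjusted p = 0.0508). Counts of Fosb and Fosl1 were low, which limits their precision.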

Other observations

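Outside AP-1, Atf5 and Atf4, bZIP genes of the amino acid and mitochondrial stress response, were higher in KO cells with either cytokine, and Atf5 in untreated cells too. Atf5 had 3810.2 ± 748 in KO and 911 ± 101 in WT cells with IFN-gamma, 6797 ± 820.2 and 2653 ± 69.9 with IL-4, and 2866 ± 431 and 1411 ± 51.4 in untreated cells (SD, n = 3). The log2 fold changes were 2.05, 1.35 and 1.01, and no adjusted p exceeded 0.000269. Atf4, which encodes the main effector of that response, changed by 0.54 ± 0.084 (SE, adjusted p = 0.000165) with IFN-gamma and 0.50 ± 0.084 (SE, adjusted p = 0.00165) with IL-4. Of 24 other bZIP genes, 6 were higher and 6 lower with IFN-gamma, 3 higher and 2 lower with IL-4, and 1 higher and 0 lower in untreated cells. Over all genes, 14.3% were higher and 13.6% lower with IFN-gamma, 3.46% and 3.13% with IL-4, and 1.46% and 0.525% in untreated cells.

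Of 20 AP-1 target genes tested, 3 were higher and 5 lower in KO cells with IFN-gamma, 3 higher and 1 lower with IL-4, and 4 higher and 0 lower in untreated cells, beside the same shares of all genes. The gene lower with IL-4 was Cd44, a hyaluronan receptor gene (-0.35 ± 0.094 (SE, adjusted p = 0.0343)), whose call was lost after quantile normalization, in a fit of those libraries alone and without any 1 of 4 of the 6 IL-4 libraries (adjusted p up to 0.154). Mmp12, macrophage elastase, had 13324 ± 3082 in KO and 1318 ± 344 in WT cells with IFN-gamma, 197616 ± 47288 and 83994 ± 7479.5 with IL-4, and 90726 ± 20865 and 47793 ± 4485 in untreated cells. Its untreated change of 0.90 lost its call without any 1 of 5 of the 6 untreated libraries (adjusted p up to 0.188). Hmox1, which encodes the haem-degrading enzyme haem oxygenase 1, changed by 0.49, 0.75 and 0.73 in the same order. Mmp13, a collagenase gene, changed by 1.93 ± 0.34 (SE, adjusted p = 0.00257) with IL-4 and 1.99 ± 0.34 (SE, adjusted p = 0.00371) in untreated cells, and the IL-4 call was lost in a fit of those libraries alone (adjusted p = 0.0678). Summed osteoclast markers were higher in KO libraries as well (1049.7 to 1415 against 363 to 395 with IFN-gamma, 3938 to 4896 against 2334 to 3303 with IL-4, and 1161 to 1336 against 788 to 1092 in untreated cells). Of these 4 markers, 4 were called higher with IFN-gamma, 0 with IL-4 and 0 in untreated cells. Of all genes, 14.3%, 3.46% and 1.46% were called higher. The part of these markers in the values above was not tested.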
